A study of Equus caballus with 6 samples.

Results

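The mitochondrial ribosomal proteins were examined in the inner cell mass (ICM) and the trophectoderm (TE) of the horse blastocyst. They were taken as every gene whose deposited symbol begins with MRPL or MRPS and a digit, which gave 70 of the 12270 genes in the table, 43 named MRPL and 27 named MRPS, each with 1 row. The 6 libraries were ICM 15, ICM 22, ICM 25, TE 16, TE 23 and TE 24, named by their labels. They came from blastocysts that developed in mares treated to release several oocytes and were collected on day 8. All blastocysts were treated with Pronase, a protease mix, the TE was taken off mechanically and the ICM was cleaned by immunosurgery, so tissue and isolation method cannot be told apart. The labels name no mutation, drug or mare, do not say which ICM and TE share a blastocyst, and speak of single blastocysts, so the p-values below measure the spread between these libraries, which may be technical in part.

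Mitochondria carry their own ribosome, which translates only the few messages of the mitochondrial genome, all of them for subunits of the respiratory chain and the ATP synthase. Its RNAs are mitochondrial, but its proteins are encoded in the nucleus, made in the cytosol and imported. The large subunit (most MRPL proteins) joins amino acids, and the small subunit (most MRPS proteins) holds the message and reads it. Many of these proteins have a counterpart in the bacterial ribosome, and the others were added in the mitochondrial lineage. The names do not always follow the structure: MRPS18A and MRPS30 sit in the large subunit, and MRPS36 is now placed in the 2-oxoglutarate dehydrogenase complex of the citric acid cycle. By structure the 70 genes divided into 45 of the large subunit, 24 of the small subunit and MRPS36, and by origin into 43 with a bacterial counterpart and 27 without.

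The labels were checked against lineage markers, since ICM 25 stood apart from the other ICM libraries. RPKM is the number of reads divided by the length of a gene and by the depth of the library. Its sum over 5 epiblast markers was 122 and 128 in ICM 15 and 22, 47.7 in ICM 25 and 35.6 to 55.9 in TE. For the 4 hypoblast markers in the table, of 5 listed, the sum was 62.0, 62.5 and 20.8 in ICM 15, 22 and 25 and 14.5 to 22.7 in TE. The 4 trophectoderm markers in the table, of 6 listed, summed to 8.34, 15.6 and 12.5 in the ICM libraries and 74.6 to 94.1 in TE. NANOG, a defining epiblast gene, was at 14.1, 12.4 and 1.75 RPKM in ICM 15, 22 and 25 and at most 0.157 in TE. None of 6 listed markers of blood and uterine cells is in the table. ICM 25 thus had low trophectoderm markers, as the other ICM libraries did, and epiblast and hypoblast sums in the TE range, of which POU5F1 made up most of the epiblast sum (35.97 RPKM in ICM 25, 33.2 to 53.6 in TE). By gene, NANOG, SOX2, KLF4 and GDF3 of the epiblast and PDGFRA and BMP2 of the hypoblast were above every TE library in ICM 25, while GATA4 and GATA6 were below every one. Medians of the tissue difference and the differences of most named genes are therefore also given without it. The part of cell makeup in the results below was not tested, and in these bulk samples fewer cells of a type and less RNA per cell cannot be told apart.

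Mitochondrial ribosomal proteins were expressed above the middle of the transcriptome in both tissues. The median of the members' mean RPKM was 20.0, against 6.04 for the 9436 genes that reached 1 RPKM in 3 libraries or more. This filter kept 68 of the 70 members, of which 60 lay above the median and 43 in the upper quartile of these genes by mean level. A member kept had between 5 and 12782 reads in a library, with a median of 308.5. Most levels were alike: 51 of the 70 genes had a mean between 10 and 50 RPKM, 3 were above 50 and 7 below 5.

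**Figure D1:**
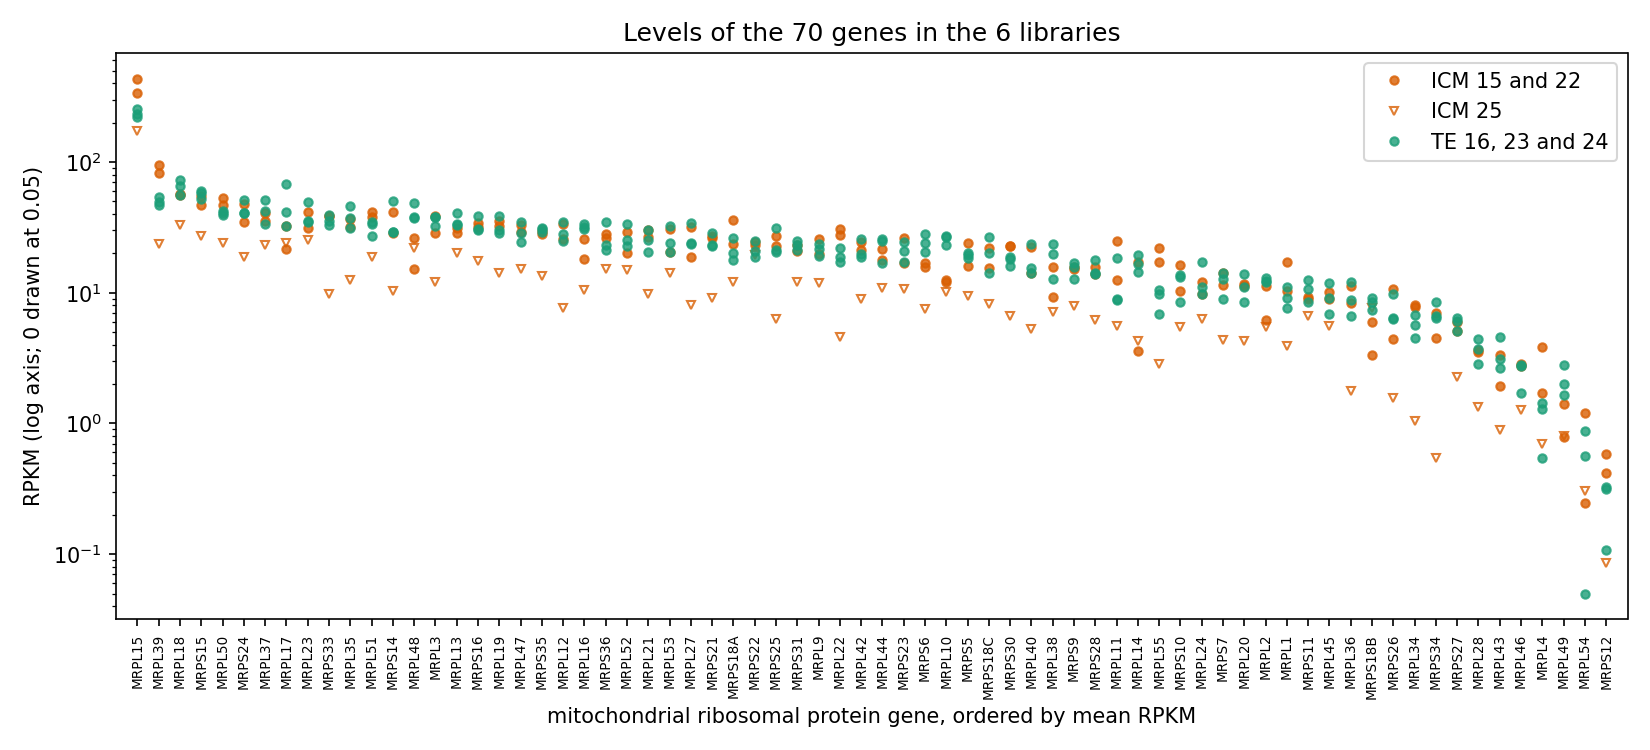
RPKM of each of the 70 mitochondrial ribosomal protein genes (x axis, ordered by mean) in the 6 libraries (y axis, log scale), with ICM 25 as open triangles. MRPL15 stands above the other genes, MRPL54 and MRPS12 lie at the lower end, and ICM 25 is the lowest library for 61 of the 68 genes that passed the filter.

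MRPL15, a large subunit protein with a bacterial counterpart, was the most abundant by a wide margin. It stood at 339, 434 and 173 RPKM in ICM 15, 22 and 25 and at 255, 221 and 235 in TE 16, 23 and 24. Its mean was 4.72 times that of the next member and lay at percentile 98.7 of all genes kept. The deposited gene spans 132408 bases (chromosome 9, 29208590 to 29340997, in coordinates whose build is not named) but has a counted length of 987 bases.

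The next 4 genes by level were close to one another. MRPL39, a protein without a bacterial counterpart, was at 82.6, 94.4 and 23.5 RPKM in the ICM libraries and 46.6, 49.7 and 54.3 in TE. MRPL18 was at 57.4, 55.9 and 33.2 RPKM in ICM and 55.9, 65.2 and 73.4 in TE. The values of MRPS15, of the small subunit, were 46.9, 54.9 and 27.3 RPKM in ICM and 52.0, 57.9 and 60.3 in TE. MRPL50 was at 53.6, 46.9 and 24.1 RPKM in ICM and 40.7, 42.0 and 39.5 in TE. In ICM the ranges of these 4 overlapped, and each had its lowest value in ICM 25. In TE all values of MRPL50 lay below those of the other 3, all values of MRPL18 lay above those of MRPL39, and MRPS15 overlapped both.

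At the lower end, MRPS12, whose bacterial counterpart lies at the decoding site, was at 0.588, 0.415 and 0.085 RPKM in ICM and 0.316, 0.107 and 0.325 in TE, on 1 to 7 reads a library. MRPL54 had 4, 1 and 1 reads in ICM and 2, 0 and 3 in TE. Its counted length was 135 bases, the shortest of the members, so that 3 reads, the most that a count of 0 allows, would still be 1.16 RPKM in TE 23. Both genes missed the filter, and no difference between the tissues was detectable at this depth. MRPL49 (0.79, 1.41 and 0.80 RPKM in ICM, 2.82, 1.65 and 2.01 in TE), MRPL4 (1.70, 3.88 and 0.70 in ICM, 1.44, 0.54 and 1.28 in TE) and MRPL46 (2.73, 2.86 and 1.26 in ICM, 1.71, 2.75 and 2.80 in TE) were the lowest of those kept.

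The comparison of ICM with TE asked whether the tissues differ in these genes. With all 6 libraries, 61 of the 68 members had a lower mean log2(RPKM + 1) in ICM (64.7% of all genes did). Lower and higher means below are on this scale, and some members have the other direction by mean RPKM. The median log2 difference, ICM minus TE on this scale, was -0.37, beside -0.15 for all genes. None of the 68 was called in either direction (limma, Benjamini-Hochberg adjusted p at 0.05 over all genes, where 1.87% of genes were called, 0.933% in each direction), also by limma voom on the recovered reads. At an unadjusted p under 0.05 there were 9 members, all with lower values in ICM, or 13.2% of those kept, beside 11.6% of all genes in that direction and 16.9% in either. The 3 ICM and 3 TE values did not overlap for 8 members, all with ICM below TE (11.8%, beside 17.8% of all genes), and for 0 members with ICM above TE (6.81% of all genes). Both shares were under those of all genes.

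Rescaling the libraries by the median of ratios moved the median of all genes from -0.15 to -0.03 and that of the members from -0.37 to -0.24, with 57 members then lower in ICM. With libraries weighted by their quality the members' median was -0.06, and 42 were lower in ICM. In the authors' deposited table, 5 of the 70 members (7.14%) had a DESeq adjusted p under 0.05 with a lower value in ICM, beside 5.93% of all genes in that direction. They were MRPL10, MRPL48, MRPL17, MRPL14 and MRPL16, and no member passed in the other direction in the deposited table.

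MRPL10, which anchors the flexible stalk that brings translation factors to the large subunit, came closest to the threshold. It was at 12.2, 12.6 and 10.2 RPKM in ICM 15, 22 and 25 and at 26.8, 27.02 and 23.4 in TE 16, 23 and 24. The ICM libraries lay close together and well under every TE library. The log2 difference was -1.08 (SE 0.22, limma adjusted p = 0.0506), and -1.0 without ICM 25 (adjusted p = 0.012). It passed with all 6 libraries after median of ratios rescaling (adjusted p = 0.045, where 2.21% of genes were called in either direction and 0.88% lower in ICM). It also passed with libraries weighted by their quality (adjusted p = 0.011, where 8.05% of genes were called, 3.87% higher and 4.19% lower in ICM), and its adjusted p over the alternatives tried ran from 0.011 to 0.39. The gene lies on chromosome 11 (24001643 to 24006255), and in the authors' deposited table its ICM over TE fold was 0.453 (DESeq adjusted p = 0.0051).

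MRPL48, a large subunit protein without a bacterial counterpart, was at 26.3, 15.3 and 22.1 RPKM in ICM and 37.6, 38.3 and 48.5 in TE. All ICM values were below all TE values, and ICM 25 lay between the other ICM libraries. The log2 difference was -0.96 (SE 0.27, limma adjusted p = 0.12), and without ICM 25 it was -1.0 (adjusted p = 0.040). With library weights it was -1.01 (adjusted p = 0.030), and over its alternatives the adjusted p ran from 0.030 to 0.62. MRPL17 was likewise not lowest in ICM 25, at 21.6, 32.5 and 24.1 RPKM in ICM against 68.03, 32.7 and 41.3 in TE (log2 difference -0.79 with SE 0.31, adjusted p = 0.25). Its TE 16 value stood far above the other TE libraries, and the highest ICM value nearly reached the lowest of TE.

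MRPL16, whose bacterial counterpart lies near the bound transfer RNAs, was at 18.3, 25.7 and 10.6 RPKM in ICM and 30.8, 33.8 and 31.9 in TE (log2 difference -0.87 with SE 0.32, limma adjusted p = 0.21). MRPS6, the small subunit gene with the smallest p, was at 15.6, 17.01 and 7.55 RPKM in ICM, and its TE values were 23.9, 20.5 and 28.3 (log2 difference -0.87 with SE 0.32, adjusted p = 0.22). MRPL2, whose counterpart helps form the catalytic centre, was at 6.20, 11.3 and 5.47 RPKM in ICM and 12.2, 12.9 and 12.3 in TE (adjusted p = 0.27). Without ICM 25 the differences were -0.55 for MRPL16 (adjusted p = 0.11), -0.53 for MRPS6 (adjusted p = 0.11) and -0.52 for MRPL2 (adjusted p = 0.22). In these genes no ICM library reached the TE range, and the TE values of MRPL16 and MRPL2 were much tighter than those of ICM.

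MRPL14 had the largest mean difference of the members, -1.22 (SE 0.48, limma adjusted p = 0.24). It was at 3.57, 17.1 and 4.28 RPKM in ICM and 16.6, 14.5 and 19.3 in TE. ICM 22 lay inside the TE range, and among the alternatives tried the gene passed only when that library was left out (log2 difference -1.85, adjusted p = 0.035, where 0.805% of genes were called, 0.487% lower and 0.318% higher in ICM). The low MRPL49 (values above, 11 to 42 reads a library) had a difference of -0.66 (SE 0.26, adjusted p = 0.24) without overlap, and MRPL38 (adjusted p = 0.29) was the last of the 9 with an unadjusted p under 0.05. Without ICM 25 the differences of MRPL17, MRPL14, MRPL49 and MRPL38 were -0.75, -0.96, -0.59 and -0.55.

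**Figure D2:**
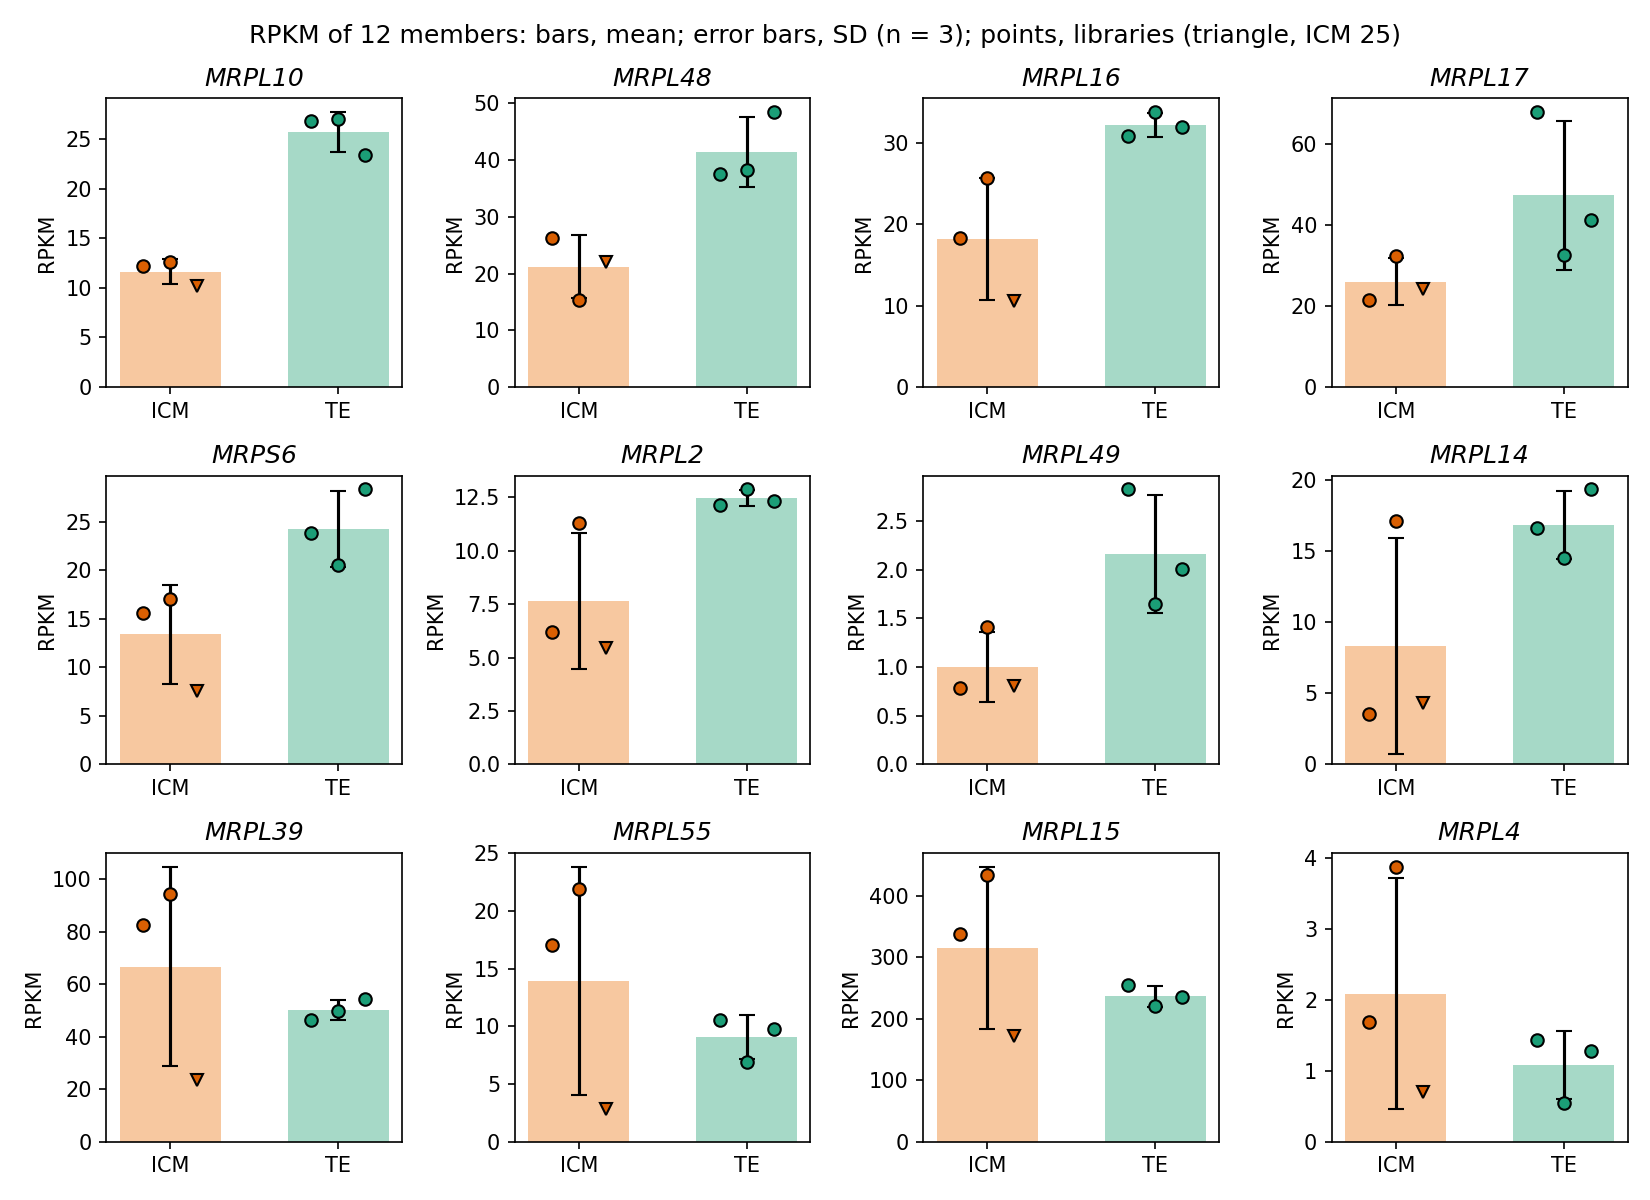
RPKM of 12 members in ICM and TE: bars are means, error bars SD (n = 3) and points single libraries, with ICM 25 as a triangle. The upper 2 rows hold the 8 genes with the smallest p among those lower in ICM, and the bottom row holds genes with a higher mean in ICM, in which ICM 25 lies below the other ICM libraries.

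On the other side, 7 members had a higher mean log2(RPKM + 1) in ICM, and none was called. MRPL55, a large subunit protein with a bacterial counterpart, was at 17.1, 21.9 and 2.87 RPKM in ICM 15, 22 and 25 and at 10.5, 6.88 and 9.79 in TE. The MRPL39 values above have the same form, with ICM 15 and 22 over the TE range and ICM 25 under it. Their differences with all libraries were 0.24 for MRPL55 (SE 0.59, limma adjusted p = 0.88) and 0.18 for MRPL39 (SE 0.47, adjusted p = 0.89). Without ICM 25 they were 1.03 (adjusted p = 0.027) and 0.81 (adjusted p = 0.023), and without ICM 15 or ICM 22 both had a lower mean in ICM. MRPL15 was at 0.31 (SE 0.34, adjusted p = 0.70), and 0.69 without ICM 25 (adjusted p = 0.061). For MRPL4, with 8 to 89 reads a library, the difference was 0.46 (SE 0.39, adjusted p = 0.61), and 0.82 without ICM 25 (adjusted p = 0.15).

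The other members with a higher ICM mean differed little. MRPL11, whose bacterial counterpart lies where elongation factors bind, was at 12.5, 24.9 and 5.52 RPKM in ICM and 8.94, 8.74 and 18.6 in TE, a log2 difference of 0.09 ( SE 0.49, limma adjusted p = 0.95). MRPS22, a small subunit protein without a bacterial counterpart, was among the steadiest, at 23.3, 24.6 and 19.6 RPKM in ICM and 18.6, 20.7 and 25.1 in TE (difference 0.07, SE 0.23, adjusted p = 0.92). The direction of MRPL11 turned without ICM 22 (-0.40), TE 16 (-0.07) or TE 23 (-0.08), and that of MRPS22 without TE 16 (-0.02). Without ICM 25 they were at 0.60 and 0.16.

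ICM 25 was the library in which the members departed most. It held 17046 reads of these genes, 0.257% of its reads in the table, against 0.436% and 0.460% in ICM 15 and 22 and 0.385% to 0.400% in TE. Summed RPKM of the 70 genes was 1764, 2049 and 869 in ICM 15, 22 and 25 and 1695, 1644 and 1991 in TE 16, 23 and 24. For 61 of the 68 members kept ICM 25 was the lowest of all 6 libraries, where it was so for 50.9% of all genes. No member was highest there (9.95% of all genes were), while 40 were highest in TE 24 (23.8% of all genes were).

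Compared with the mean of ICM 15 and 22, ICM 25 had a median difference of -1.02 log2 units over the members and -0.41 over all genes. In 44 members its RPKM was less than 50% of that mean, as in 28.2% of all genes. The largest departures, picked here for their size, were in MRPL22 at 30.9, 27.5 and 4.58 RPKM, MRPL55 and MRPL34 at 7.76, 8.08 and 1.04, in the order ICM 15, 22 and 25. ICM 25 was below both other ICM libraries in 63 members, and in 61.7% of all genes. The 5 members in which it was not included MRPL48 and MRPL17, both described above, and MRPS18B, at 3.32, 5.93 and 7.59 RPKM.

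**Figure D3:**
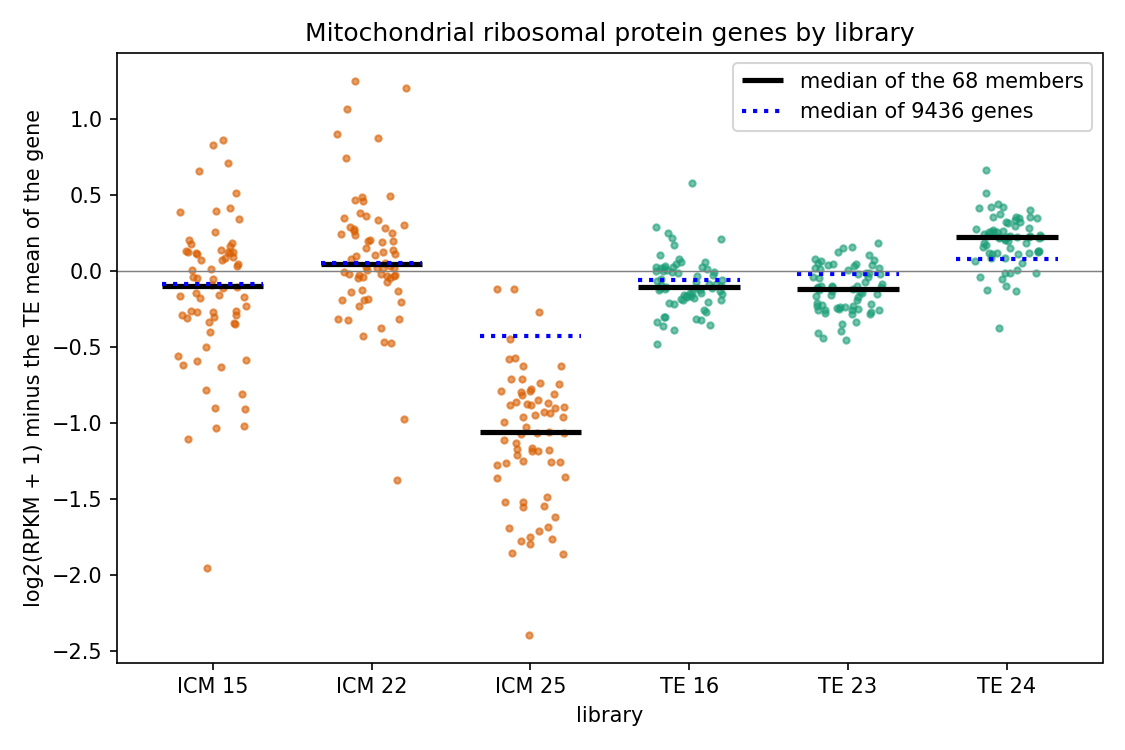
Each of the 68 members kept in each library (x axis) as log2(RPKM + 1) minus the mean of that gene in the 3 TE libraries (y axis), with the members' median (black) and the median of 9436 genes (dotted). In ICM 25 the members' median is -1.06 and that of all genes -0.43, while in ICM 15 and 22 the members' medians are -0.10 and 0.04.

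The members are short genes. Their counted length had a median of 734 bases, against 1493 for all genes. Over the shortest quartile of all genes, up to 900 bases, the median of ICM 25 minus the other ICM libraries was -0.52 log2 units, and over the longest quartile -0.36. The members had a median of 308.5 reads a library, beside 228 for all genes, and ICM 25 held 6622207 reads in the table. The parts of length and read depth in the departure were not tested.

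Without ICM 25 the median difference of the members was 0.0022 log2 units and that of all genes -0.01. A lower mean in ICM was found for 33 of the 68 members, beside 50.8% of all genes. Calls were then made for 4 members, MRPL10 and MRPL48 lower in ICM and MRPL39 and MRPL55 higher (limma adjusted p at 0.05, where 5.62% of genes were called lower and 5.89% higher in ICM, 11.5% in all). So the lower median with all libraries rested on ICM 25, whereas the values of MRPL10 and MRPL48 did not.

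**Figure D4:**
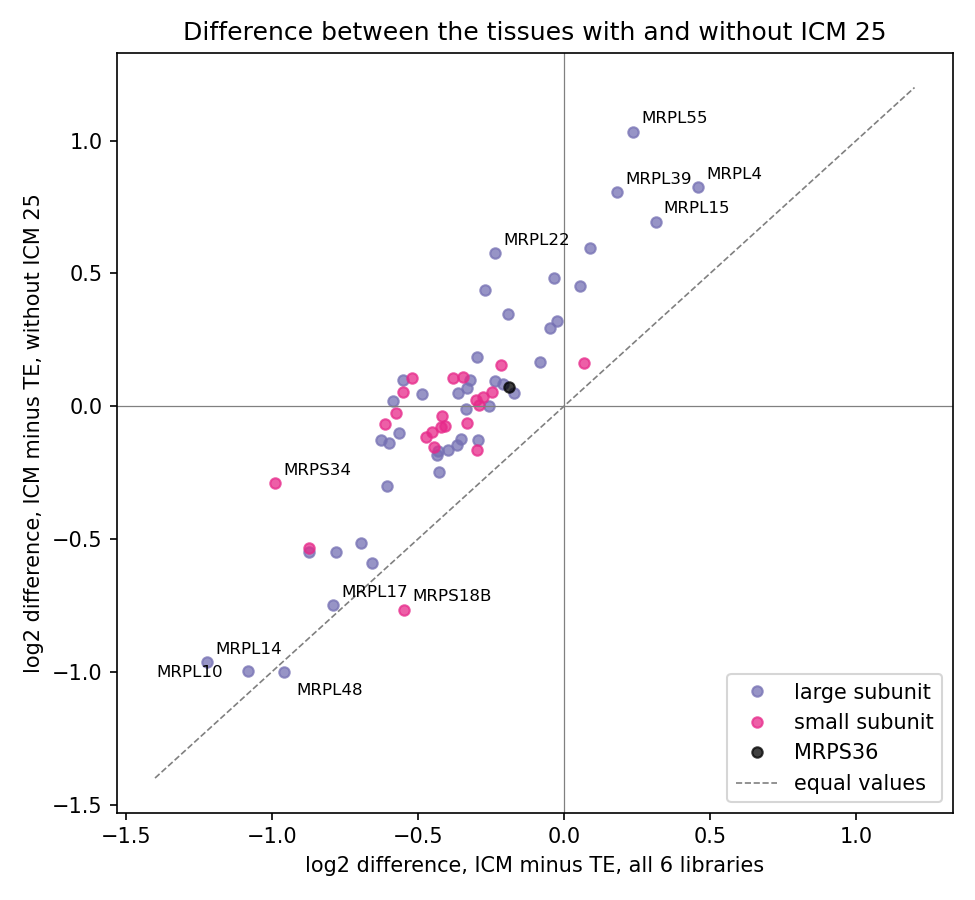
Log2 difference, ICM minus TE, of each member with all 6 libraries (x axis) and without ICM 25 (y axis), coloured by subunit, with a dashed line of equal values. Most points lie above the line and gather around 0 on the y axis, MRPL10 and MRPL48 stay near -1.0, and MRPL39 and MRPL55 reach 0.81 and 1.03.

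By subunit, the median difference was -0.35 for the 44 large subunit members kept (38 lower in ICM) and -0.42 for the 23 of the small subunit (22 lower in ICM), and 0.03 and -0.04 without ICM 25. By origin it was -0.37 for the 42 members with a bacterial counterpart and -0.36 for the 26 without, and -0.0037 and 0.02 when ICM 25 was left out. In ICM 25 against ICM 15 and 22 the medians of the large and small subunit were -1.01 and -1.03. No test of these medians was made, since the members are not replicates. The 8 members without overlap were 7 of the large subunit and MRPS6. MRPL13, at 31.4, 28.5 and 20.2 RPKM in ICM and 33.5, 40.7 and 33.2 in TE, completed them (adjusted p = 0.44), with a difference of -0.43 that was -0.25 without ICM 25.

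MRPL12, the stalk protein carried by MRPL10 and also reported to bind the mitochondrial RNA polymerase, was at 25.6, 33.4 and 7.63 RPKM in ICM and 24.7, 27.96 and 34.7 in TE (log2 difference -0.58 with SE 0.47, limma adjusted p = 0.59). Unlike MRPL10, it overlapped the TE range in ICM 15 and 22. MRPS30 was at 22.6, 22.8 and 6.70 RPKM in ICM and 18.2, 16.0 and 18.8 in TE (difference -0.19, SE 0.42, adjusted p = 0.86). MRPS36 was at 28.1, 26.0 and 15.3 RPKM in ICM and 23.0, 21.1 and 34.7 in TE (difference -0.19, SE 0.31, adjusted p = 0.81). Without ICM 25 the 3 differences were 0.02, 0.35 and 0.07, in the order MRPL12, MRPS30 and MRPS36.

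The MRPS18 paralogs, related copies of which MRPS18A lies in the large subunit and the others in the small one, had different levels. MRPS18A was at 23.8, 35.8 and 12.2 RPKM in ICM and 20.1, 17.8 and 26.0 in TE. MRPS18C was at 15.3, 22.1 and 8.25 RPKM in ICM and 20.2, 14.3 and 26.6 in TE. MRPS18B was the lowest of the paralogs in every library, nearest to MRPS18C in ICM 25, and had 7.35, 8.57 and 9.10 RPKM in TE. None was called, with log2 differences of 0.05 (SE 0.37, limma adjusted p = 0.96), -0.45 (SE 0.37, adjusted p = 0.59) and -0.55 (SE 0.30, adjusted p = 0.40) for A, C and B. Without ICM 25 these were 0.45, -0.10 and -0.77.

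The makeup of the set within a library was examined by dividing each RPKM by the median of the members kept in that library, a scale chosen after the data were seen. MRPL15 was 17.6, 18.5 and 19.2 times this median in ICM 15, 22 and 25 and 12.3, 10.9 and 9.38 times in TE 16, 23 and 24. So ICM 25, low in absolute RPKM of MRPL15, was the highest library on this relative scale, and the tissues did not overlap. MRPL15 alone took 23.6%, 26.0% and 24.2% of all member reads in ICM and 18.7%, 16.7% and 15.0% in TE. With the libraries scaled in this way the log2 difference was 0.77 (SE 0.23, limma adjusted p = 0.17). No member was called, where 0.901% of genes were called higher and 0.0954% lower in ICM, and 2 members, MRPL15 and MRPL39, had an unadjusted p under 0.05.

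On that scale 6 members lay above the TE range in every ICM library, MRPL15, MRPL39, MRPL4, MRPL51, MRPS18A and MRPS22, where 20.2% of all genes did. MRPS18A was at 1.23, 1.53 and 1.35 times the members' median in ICM and 0.96, 0.88 and 1.04 in TE (log2 difference 0.49 with SE 0.22, limma adjusted p = 0.37). Below TE without overlap were 3, MRPS6, MRPL16 and MRPS34, where 3.59% of all genes were. The scale holds the members' median equal in all libraries and so shifts the other genes. The shares of all genes on it, also those called, move by construction and are no background for the members. On RPKM the shares without overlap were 6.81% above and 17.8% below TE. MRPS6 was at 0.81, 0.73 and 0.84 times the median in ICM and 1.15, 1.02 and 1.13 in TE, with ICM 25 close to the other ICM libraries (difference -0.45, SE 0.22, adjusted p = 0.39). MRPL10 overlapped here, with ICM 25 at 1.13 times the median, beside 0.63 and 0.54 in ICM 15 and 22 and 0.93 to 1.34 in TE.

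Position in the genome affects how single members can be read, as strand was not stated and reads of overlapping genes cannot be told apart. The spans of 4 members, MRPL23, MRPL24, MRPL43 and MRPS24, overlap another gene of the table. The span of MRPL24 lies wholly within that of HCN3, which averaged 0.76 RPKM in ICM and 0.85 in TE. That of MRPL23 covers 187832 bases of chromosome 12 and overlaps the imprinted genes IGF2 and H19. H19 was at 0.94, 7.97 and 81.0 RPKM in ICM and 19.6 to 39.8 in TE, while MRPL23 stayed at 31.0, 41.6 and 25.2 in ICM and 34.8, 35.4 and 49.6 in TE. The counted length of MRPL23 is 398 bases. MRPS11 and MRPL46, 374 bases apart on chromosome 1, were the only members lying within 1000 bases of each other. MRPS11 was 4.01 times as abundant as MRPL46 by mean RPKM, at 9.36, 9.03 and 6.70 in ICM and 10.6, 8.55 and 12.4 in TE. ICM 25 minus the other ICM libraries was -0.40 log2 units for MRPS11 and -0.75 for MRPL46.

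Other genes of mitochondrial translation were read from lists of 47 genes, of which 46 are in the table and 44 were kept. None was called (limma), 12 had an unadjusted p under 0.05, all with lower values in ICM (27.3%, beside 11.6% of all genes in that direction), and 38 of 44 had a lower mean in ICM (86.4%, beside 64.7%). Without ICM 25, 27 of 44 had a lower mean in ICM. Their median difference was -0.37, the same as that of the members to 2 decimals, and -0.12 without ICM 25. Among them, 15 had all ICM values below all TE values (34.1%, beside 17.8% of all genes).

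Ribosomal subunits with other names, listed together with the insertase OXA1L, were 7 genes, 6 of them kept, with a median of -0.27. Without ICM 25 it was -0.04, and 3 of the 6 had a lower mean in ICM. ICT1, a large subunit protein that frees stalled chains, was at 23.1, 26.6 and 13.8 RPKM in ICM and 28.8, 28.5 and 37.7 in TE (log2 difference -0.60 with SE 0.29, limma adjusted p = 0.35). OXA1L, which inserts new chains into the inner membrane, was at 41.6, 43.8 and 34.2 RPKM in ICM and 42.7, 53.0 and 60.1 in TE (adjusted p = 0.49). AURKAIP1, of the small subunit, was at 8.59, 7.56 and 4.47 in ICM and 10.1, 8.18 and 8.89 in TE (adjusted p = 0.53). Without ICM 25 the differences of ICT1, OXA1L and AURKAIP1 were -0.33, -0.26 and -0.15.

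Assembly factors, which fold, modify and join the ribosomal RNAs and proteins, were 22 kept, with a median of -0.41, and -0.22 without ICM 25, when 13 had a lower mean in ICM. With all libraries 8 had an unadjusted p under 0.05 (36.4%, beside 16.9% of all genes) and 7 had ICM below TE without overlap (31.8%, beside 17.8%). TFB1M, which methylates the small ribosomal RNA, was at 8.19, 10.1 and 3.51 RPKM in ICM and 13.96, 16.1 and 17.2 in TE. Every ICM library was below every TE library, with a difference of -1.11 (SE 0.35, limma adjusted p = 0.15). Without ICM 25 the difference was -0.72, and TFB1M was called (adjusted p = 0.047). It was then the only gene called of the 44 other translation genes kept, where 5.62% of all genes were called lower in ICM. METTL15, another methylase of that RNA, was at 1.34, 2.42 and 0.77 RPKM in ICM and 3.89, 3.64 and 3.88 in TE (difference -0.99, SE 0.29, adjusted p = 0.13). The helicase DDX28, which acts in large subunit assembly, was at 1.18, 1.05 and 0.33 RPKM in ICM and 2.59, 2.02 and 2.92 in TE (difference -0.94, SE 0.27, adjusted p = 0.13). METTL15 and DDX28 were at -0.76 and -0.72 without ICM 25.

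Translation factors numbered 16, with a median of -0.35, and -0.09 without ICM 25, when 11 had a lower mean in ICM. With all libraries 4 had an unadjusted p under 0.05 (25.0%, beside 16.9% of all genes) and 7 had ICM below TE without overlap (43.8%, beside 17.8%). MTIF3, an initiation factor, was at 10.6, 11.8 and 4.50 RPKM in ICM and 16.3, 17.6 and 18.5 in TE (log2 difference -0.98 with SE 0.34, limma adjusted p = 0.19). MTRF1, a release factor, was at 3.43, 2.71 and 2.31 RPKM in ICM and 4.51, 5.07 and 6.74 in TE (adjusted p = 0.18). C12orf65, which rescues stalled ribosomes, was at 2.49, 2.52 and 1.18 RPKM in ICM and 3.69, 3.77 and 4.81 in TE (adjusted p = 0.21). In these genes ICM 15 and 22 also lay below TE, as they did in TFB1M, METTL15 and DDX28. Without ICM 25 the differences of MTIF3, MTRF1 and C12orf65 were -0.60, -0.65 and -0.53.

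The messages that the mitochondrial ribosome translates were compared with the members in ICM 25. The 13 mitochondrially encoded genes had a median of 0.09 log2 units in ICM 25 against the other ICM libraries, where the members had -1.02, and their reads were 12.9% of the total in ICM 25, 10.1% and 8.60% in ICM 15 and 22 and 12.3% to 13.9% in TE. The 60 cytosolic ribosomal proteins kept had a median of -0.81, and the 44 other mitochondrial translation genes kept had -0.78. ICM 25 was the lowest library for 84.1% of these translation genes and 89.7% of the members. In ICM 15 and 22 against TE the cytosolic ribosomal proteins were at a median of 0.35, where the members were at 0.0022. The other mitochondrial translation genes were then at -0.12 and the mitochondrially encoded genes at -0.48. The ICM 25 medians describe a single library set against the mean of ICM 15 and 22, and the others describe those 2 libraries against TE. No test of the difference between the gene groups was made.

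**Figure D5:**
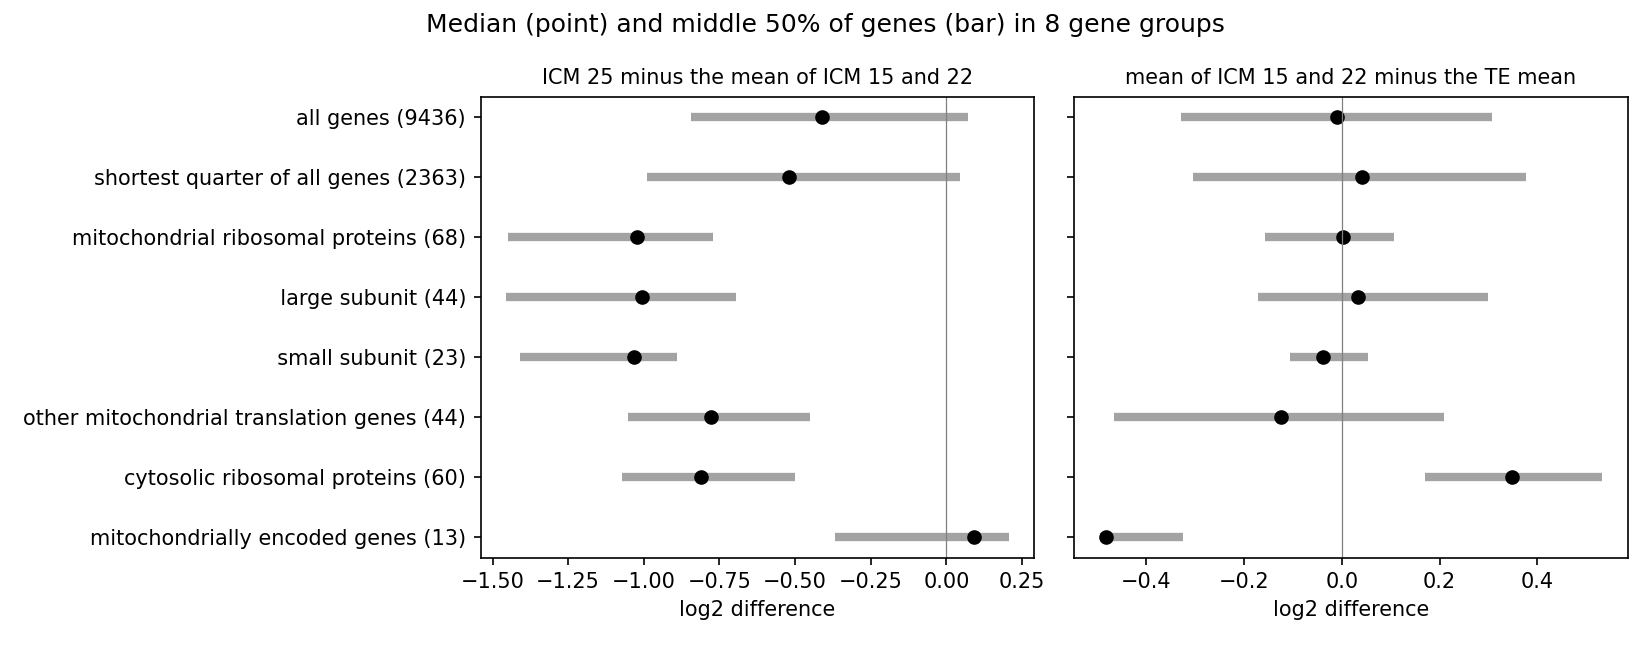
Median (point) and middle 50% of genes (bar) of 2 log2 differences, ICM 25 minus the mean of ICM 15 and 22 (left) and that mean minus the TE mean (right), in 8 gene groups with the number of genes kept. The members are at -1.02 and 0.0022, all genes at -0.41 and -0.01, cytosolic ribosomal proteins at -0.81 and 0.35 and mitochondrially encoded genes at 0.09 and -0.48.

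The members spread more between the ICM libraries than between the TE libraries. The median SD of a member on the log2 scale was 0.24 in TE and 0.61 in ICM. For all genes it was 0.19 and 0.44, so a larger spread in ICM was not particular to the members. In 64 of the 68 members the SD was larger in ICM than in TE, and the share of all genes was not counted. Over ICM 15 and 22 alone the median SD of the members was 0.19 and that of all genes 0.25, and 30 of the 68 members had a larger SD than in TE.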

How the data were processed

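Libraries were made from RNA isolated with a Picopure kit and amplified with a Nugen Ovation kit, per the labels' protocols. The authors deposited 1 table whose 6 library columns are RPKM, per the file headers. It also holds the authors' DESeq results: mean normalized signal (baseMean), the ICM over TE fold as a ratio, its log2 value, a p-value and an adjusted p-value, per the file headers. The authors used FastQC and DESeq, per the submitters' processing notes. Aligner, counter, build and annotation: not given in the sources used here. Whole reads and gene lengths were recovered from RPKM and baseMean, with 100% of values up to 1000 reads whole within 0.001 reads. Libraries held 6526212 to 10686659 reads in the table. The cDNA was amplified without molecular identifiers, so read counts and floors cover counting error only.

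Genes that reached 1 RPKM in 3 libraries or more were fitted as log2(RPKM + 1) with limma 3.58.1 in R 4.3.3 (trend, two-sided, Benjamini-Hochberg over all genes kept, threshold 0.05). Differences are ICM minus TE and understate the change of low genes. The test was checked on simulated data with the same spread in both groups and no departing library. That check therefore does not cover a library such as ICM 25. Of the member symbols, 68 are in the NCBI table of assembly TB-T2T, used for names only. Members named are the 8 with the smallest p in each direction (7 were higher in ICM), the 5 highest and 5 lowest, the MRPS18 paralogs, those listed at 0, and MRPS36, MRPS30 and MRPL12, and in each list any called gene and the 3 smallest p. MRPL13, MRPL22, MRPL23, MRPL24, MRPL34, MRPL38, MRPL43, MRPL51, MRPS11, MRPS24 and MRPS34 were named after their values were seen. Members and lists were chosen with earlier results of these data known. Alternatives were another pseudocount (0.1), no filter, a filter of 5 RPKM, 2 rescalings, library weights, voom, each library left out and, chosen after seeing the data, scaling to the members' median and the ICM spread without ICM 25.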

Additional observations from a re-analysis of the deposited data

How the results depend on the processing

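With 3 libraries a tissue, single libraries set most values. The members' median difference ran from -0.58 to 0.0022 when each library was left out, with 33 to 65 members lower in ICM; leaving out ICM 25 gave 0.0022 and 33. Calls of members then ran from 0 to 2 higher in ICM and from 0 to 2 higher in TE. Those of the other translation genes ran from 0 to 1 higher in TE. Each upper count came from leaving out ICM 25. In that fit the share of all genes passing the threshold was 5.89% with more in ICM and 5.62% with less. With all libraries, median of ratios rescaling called 1 member higher in TE (MRPL10), beside 0.88% of all genes. Library weights called 2 (MRPL10 and MRPL48), beside 4.19% of all genes, with a members' median of -0.058 and 42 members lower in ICM. With quantile normalization, voom, a pseudocount of 0.1, a filter of 5 RPKM, no filter or scaling to the members' median, 0 members were called, and the members' median was negative under all of these but the last, for which it was not computed, since that scaling sets it. The large subunit median ran from -0.55 to 0.033 and that of members without a bacterial counterpart from -0.56 to 0.019 over the left-out libraries.

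Directions of uncalled members turned as follows when single libraries were left out: MRPL55 ran from -0.25 to 1.03, MRPL39 from -0.18 to 0.81, MRPS22 from -0.023 to 0.18, MRPL11 from -0.40 to 0.60, MRPS18A from -0.29 to 0.45, MRPL50 from -0.27 to 0.29, MRPL46 from -0.24 to 0.17, MRPS36 from -0.35 to 0.073, MRPS30 from -0.46 to 0.35 and MRPL12 from -0.98 to 0.019. Median of ratios rescaling turned MRPL50 (0.092) and MRPL46 (0.0060), quantile normalization MRPL50 (0.12), and library weights MRPL50 (0.17), MRPL46 (0.11), MRPS36 (0.070) and MRPS30 (0.21). Scaling to the members' median turned MRPL18 (0.014), MRPL50 (0.39), MRPL46 (0.22), MRPS36 (0.25), MRPS30 (0.22), OXA1L (0.081) and AURKAIP1 (0.0088). Apart from the left-out libraries and the scalings, whose construction moves the median, the cause was not tested. Keeping 1 row a symbol was not run, since every member symbol has 1 row. No paired analysis was possible because no replicate number occurs in both tissues.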
